A study of Mus musculus with 4 samples.

Results

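Dividing cells were followed in mouse thyroids through 42 genes of the cell division machinery, out of 32285 genes counted. The genes were taken by symbol from a list: 13 act in DNA replication and nucleotide supply, and 29 act in mitosis. The rule that lists them uses no measured value, but the list was drawn up with earlier results of these data known. Thyroids of C57 mice (C57BL/6 in the methods of the study) of postnatal day 5, 10, 20 and 30 were dissociated with collagenase and dispase, dead cells were removed, and the RNA of single cells was captured in droplets and sequenced. The tissue of 10 mice was pooled into 1 library per age, no transgene or treatment is named for the mice, and each age thus has no replicate. The 4 libraries are written d5, d10, d20 and d30 after the age in days on their labels. Each transcript is counted once through its unique molecular identifier (UMI). Cells of each library were clustered without the members and other listed cell cycle genes among the clustering features. Genes of dividing cells outside these lists, such as several histone genes, were not left out. Clusters were then named from marker genes as follicular-like, capillary-like, fibroblast-like, mural-like (vessel wall), macrophage-like, T-like and B-like. The names mark resemblance to a class. Tests between classes use the 4 libraries as replicates, intervals of shares within 1 library cover counting error among its cells only, and differences between ages cannot be told apart from differences between libraries.

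A dividing cell first copies its DNA and then separates the copies. The Mcm2 to Mcm7 proteins form the helicase ring that opens the double helix, with Gins2 as part of the complex that activates it. Pcna is the clamp that holds polymerases on the DNA, Uhrf1 carries DNA methylation through replication, and Tyms, Rrm1, Rrm2 and Tk1 supply nucleotides. Cdk1 with the cyclins Ccna2, Ccnb1 and Ccnb2 and the kinases Plk1, Aurka and Aurkb drives the cell into mitosis, and Cdc20 and Ube2c act with the anaphase-promoting complex that ends it. Smc2 and Smc4 condense chromosomes, Top2a untangles them, and Mki67 coats them. The centromere proteins Cenpa, Cenpe and Cenpf attach them to a spindle organized by proteins such as Tpx2, Kif11, Prc1 and Kif23. In the growing thyroid, follicular cells, vessels and stroma divide after birth, whereas most cells of the adult gland are at rest. Thymocytes, the immature T cells of the thymus, divide fast in young mice.

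Many mitosis genes are known to carry a CCAAT box and a cell cycle homology region (CHR) close to their start, and many replication genes an E2F site. Promoter sequences of RefSeq on GRCm38.p6 were matched for 35 of the 42 members. Aurkb, Ccna2, Gins2, Kif20a, Mcm4, Smc4 and Tpx2 were not matched. The last 100 bases before the start were searched on both strands for CCAAT, for the CHR as TTTGAA or TTTAAA, and for the E2F site as TTTGGCGC, TTTCGCGC, TTTCCCGC or TTTGCCGC. The search patterns do not overlap each other. The following windows are shown to let the motifs be seen in place. They belong to 6 mitosis genes with both a CCAAT box and a CHR and to 2 replication genes. They run 5′ to 3′ on the strand of the gene, with each match in capitals (ATTGG and TTCAAA are CCAAT and TTTGAA on the other strand).
Cdk1: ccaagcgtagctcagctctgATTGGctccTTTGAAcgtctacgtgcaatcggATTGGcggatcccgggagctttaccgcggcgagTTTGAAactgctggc
Ccnb1: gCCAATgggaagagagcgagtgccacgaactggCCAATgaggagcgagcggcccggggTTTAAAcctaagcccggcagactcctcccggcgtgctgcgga
Top2a: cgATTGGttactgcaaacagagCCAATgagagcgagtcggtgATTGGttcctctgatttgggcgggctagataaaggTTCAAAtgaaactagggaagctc
Ube2c: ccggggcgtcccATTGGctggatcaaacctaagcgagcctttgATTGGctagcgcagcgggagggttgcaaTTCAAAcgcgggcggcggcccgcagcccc
Plk1: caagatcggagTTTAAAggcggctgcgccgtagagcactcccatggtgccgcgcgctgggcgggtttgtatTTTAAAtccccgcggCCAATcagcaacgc
Cdc20: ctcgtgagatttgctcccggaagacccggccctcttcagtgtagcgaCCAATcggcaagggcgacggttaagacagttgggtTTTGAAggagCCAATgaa
Mcm6: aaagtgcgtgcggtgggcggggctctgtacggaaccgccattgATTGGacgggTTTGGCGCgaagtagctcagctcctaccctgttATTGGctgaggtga
Pcna: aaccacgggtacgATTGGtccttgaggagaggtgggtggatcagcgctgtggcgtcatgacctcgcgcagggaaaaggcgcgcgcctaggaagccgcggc
Cdk1 lies at chr10:69352913-69353012 (minus strand), Ccnb1 at chr13:100786487-100786586 (minus) and Top2a at chr11:99024190-99024289 (minus). The Ube2c window is chr2:164769829-164769928 (plus), that of Plk1 chr7:122159335-122159434 (plus) and that of Cdc20 chr4:118437344-118437443 (minus). Mcm6 is at chr1:128359706-128359805 (minus) and Pcna at chr2:132253181-132253280 (minus).

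A CCAAT box was found in 26 of the 35 member windows (74.3%), against 19.6% of 27025 mouse promoters of the same length. A CHR was found in 10 member windows (28.6%), against 9.91% of all promoters. Of the 24 mitosis windows 9 held a CHR (37.5%), and of the 11 replication windows 1 did, that of Mcm2. Both motifs stood in 8 member windows (22.9%), all of them of mitosis genes, against 1.81% of all promoters. Besides the 6 printed, these were Cenpa and Kif11. An E2F site of the letters searched was found in 1 member window, that of Mcm6 (2.86% of member windows, against 0.840% of all promoters). In the 250 bases before the start an E2F site was found in 4 of the 35 member windows (11.4%, against 1.91% of all promoters), 3 of them among the 11 replication windows, and a CHR in 17 (48.6%, against 25.5%). A match is a run of letters and not a measured binding site.

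The d5, d10, d20 and d30 libraries held 54921806 to 89039113 UMIs in 1745460 to 2258644 barcodes, of which 15297, 7843, 7808 and 6555 were listed as cells by the authors. After the filters 11400, 4099, 5131 and 3009 cells were left, with medians of 2952.5, 4250, 2541 and 3391 UMIs. Barcodes of cells recurred between the matrices. Of those of the d10, d20 and d30 libraries, 97.4% to 98.8% were seen in each other's matrix, with medians of 8 to 12 UMIs there. Among these libraries, only 12 to 19 of the barcodes were a cell in both libraries of a pair. The d5 library stood apart. Of its barcodes 33.6% to 49.9% were seen in the other matrices, and 40.3% to 41.9% of theirs in its matrix, with medians of 1 UMI. Developmental genes went against the age labels. In fibroblast-like cells H19, an imprinted growth gene silenced after birth, had 63.4, 520, 69.7 and 1880 CPM (UMIs of the gene scaled to the UMIs of all genes in the class) in the d5, d10, d20 and d30 libraries, and Igf2, an imprinted growth factor, had 19.1, 182, 23.1 and 682 CPM. Dlk1, a marker of immature stroma, had 38.2, 107, 38.8 and 428 CPM. In the authors' cell list the barcode suffixes 1 to 4 belonged to the d30, d10, d20 and d5 libraries. Each library is therefore called by its label, in the order 5, 10, 20 and 30 wherever 4 values follow each other, and no direction with age is drawn. Class markers stood highest in their own class for 7 to 12 genes of lists of 7 to 12, in every class and library.

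To compare cells of unequal depth, each cell was thinned at random to 1000 UMIs, cells with fewer were left out, and a cell with 3 or more member UMIs was counted as cycling. At this threshold, T-like cells had the largest share of cycling cells in each library. It was 6.52% in the d5 library (44 of 675 cells, exact 95% binomial interval 4.78% to 8.65%) and 8.29% in the d10 library (15 of 181, 4.71% to 13.3%). It was 14.2% in the d20 library (532 of 3743, 13.1% to 15.4%) and 30.2% in the d30 library (353 of 1169, 27.6% to 32.9%). The interval of T-like cells lay above those of the other 6 classes in the d30 library and above all but that of mural-like cells in the d20 library. It lay above those of follicular-like, capillary-like, fibroblast-like and mural-like cells in the d5 library, and above that of fibroblast-like cells alone in the d10 library. In the d10 library the order rests on the threshold. There 4 of 181 T-like cells held 5 to 9 member UMIs and 0 held 10 or more, against 21 and 38 of 987 capillary-like cells.

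**Figure D1:**
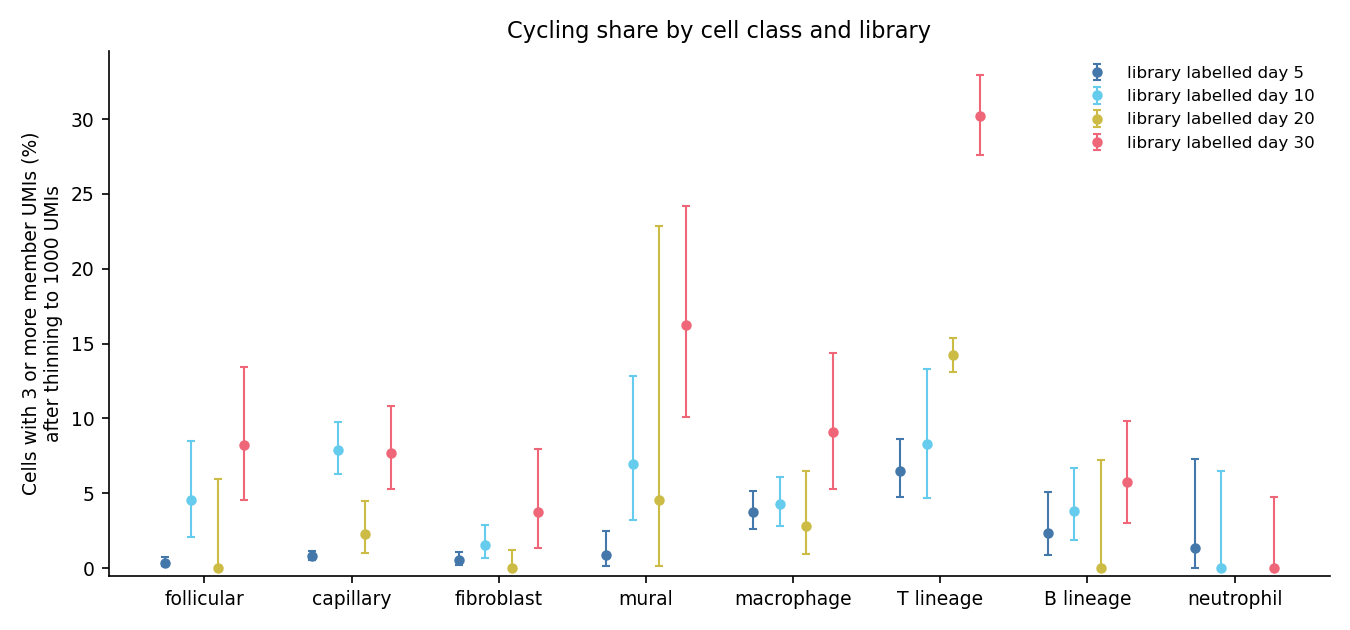
Share of cells with 3 or more member UMIs (percent) after thinning to 1000 UMIs, by cell class, with 1 point per library (colour) and its exact 95% binomial interval as a bar. Sets of under 20 cells are not drawn. T-like cells reached 30.2% in the d30 library, and fibroblast-like cells stayed at or below 3.73%.

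Capillary-like cells were named from endothelial markers and were not capillary cells only. A cluster of 314 of them in the d5 library had Vwf, a gene of larger vessels, among its leading genes. Their share of cycling cells was 0.799% in the d5 library (29 of 3630, 0.536% to 1.15%) and 7.90% in the d10 library (78 of 987, 6.30% to 9.77%). They had 2.30% in the d20 library (8 of 348, 0.998% to 4.48%) and 7.71% in the d30 library (30 of 389, 5.26% to 10.8%). The d10 and d30 libraries were thus above the d5 and d20 libraries with intervals that did not overlap. Follicular-like cells, which make thyroid hormone, had 0.343% (6 of 1747, 0.126% to 0.746%), 4.57% (9 of 197, 2.11% to 8.50%), 0 of 60 cells, which allows a share of up to 5% (3 cells of the total, as for each count of 0 below), and 8.24% (14 of 170, 4.58% to 13.4%). Here too the d10 and d30 libraries had the higher shares, and both intervals lay above that of the d5 library. For the d10 library this did not hold with another random draw of the thinning (3.05%, 1.13% to 6.51%, against 0.687%, 0.355% to 1.20%, in the d5 library). With cell cycle genes kept for the clustering its share was 1.08% (0.224% to 3.13%), and the interval overlapped that of the d5 library (0.0356% to 0.504%). The intervals of both libraries also overlapped with at most 5% mitochondrial UMIs and at 2 or more member UMIs.

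Mural-like cells had 0.857% (3 of 350), 6.98% (9 of 129), 4.55% (1 of 22) and 16.2% (19 of 117), the last with an interval of 10.1% to 24.2%. Fibroblast-like cells had 0.541% (8 of 1480), 1.53% (9 of 590), 0 of 299 cells, which allows up to 1.00%, and 3.73% (6 of 161). Macrophage-like cells had 3.74% (35 of 935), 4.26% (28 of 657), 2.82% (5 of 177) and 9.09% (16 of 176). B-like cells had 2.36% (6 of 254), 3.81% (11 of 289), 0 of 49 cells, which allows up to 6.12%, and 5.77% (12 of 208). The d30 library held the highest share in 6 of the 7 classes. The exception was capillary-like cells, where the d10 and d30 libraries had overlapping intervals. With the 4 libraries weighted equally the mean share was 14.8% in T-like, 7.15% in mural-like, 4.98% in macrophage-like, 4.68% in capillary-like, 3.29% in follicular-like, 2.98% in B-like and 1.45% in fibroblast-like cells. Between neighbours in this order below the T-like cells, intervals overlapped in at least 1 library, and the order is a description. Without the d30 library the means of the 6 classes it led were lower, as must follow when the highest share is taken out. They were 9.67% in T-like, 4.13% in mural-like, 3.61% in macrophage-like, 2.06% in B-like, 1.64% in follicular-like and 0.689% in fibroblast-like cells. With another random draw of the thinning the means were 5.78% in mural-like, 4.18% in macrophage-like, 4.36% in capillary-like and 4.06% in B-like cells. All intervals cover counting error only.

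Neutrophils, which no longer divide once in tissue, show the background of this count. Neutrophil-like cells had 1 cycling cell of 74 in the d5 library (1.35%, up to 7.30%), and 0 of 55, 0 of 15 and 0 of 76 in the others, which allows up to 5.45%, 20% and 3.95%. In the d5 library the shares of follicular-like, capillary-like, fibroblast-like and mural-like cells were not above that of neutrophil-like cells, and those of macrophage-like, T-like and B-like cells lay within its interval. The shares of follicular-like, fibroblast-like, macrophage-like and B-like cells in the d10 library and of fibroblast-like cells in the d30 library lay below the limit there. By the share alone these could not be told from background, and the 15 neutrophil-like cells of the d20 library are too few for a limit. The highest count in a neutrophil-like cell was 4 member UMIs in the d5 library and 2 in each of the others. Single cells of some of these sets held more. The maxima were 18, 17 and 38 in fibroblast-like cells of the d5, d10 and d30 libraries. They were 16 in follicular-like, 20 in macrophage-like and 4 in B-like cells of the d10 library. In the d5 library they were 5, 5, 4, 15, 20 and 4 in follicular-like, capillary-like, mural-like, macrophage-like, T-like and B-like cells. In the d5 library the 4 classes not above the neutrophil-like cells had medians of 2096 to 5743 UMIs before thinning, against 1205 in neutrophil-like cells. Free RNA in droplets of 10 to 100 UMIs held 0.248, 0.635, 1.45 and 1.48 member UMIs per 1000 UMIs. Follicular-like cells held 0.247, 0.680, 0.300 and 0.835 per 1000 and T-like cells 0.924, 0.945, 1.61 and 4.27. Without thinning the share of cells with 3 or more member UMIs was 25.2%, 55.2%, 49.9% and 56.5% in T-like and 12.5%, 27.1%, 26.1% and 41.6% in capillary-like cells.

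Member UMIs were concentrated in few cells. Of the 353 cycling T-like cells of the d30 library, 200 held 10 or more member UMIs in 1000, with a maximum of 39. In the d20 library it was 125 of 532, with a maximum of 31, and in the d10 library it was 0 of 15, with a maximum of 9. Among cycling capillary-like cells 38 of 78 in the d10 library and 15 of 30 in the d30 library held 10 or more. In the d5 and d20 libraries, no capillary-like cell did, with maxima of 5 and 4. The cycling cells of these libraries thus sat near the threshold of 3.

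Although the listed cell cycle genes had been left out of the clustering features, some clusters held cycling cells only, among the cells kept. The clustering included cells that the filters later left out, and cells of a cluster are counted here and below as those kept and thinned. In T-like cells all 93 such cells of a cluster of 342 in the d20 library, and all 77 of 102 and all 155 of 232 in 2 clusters of the d30 library, were cycling, and a further cluster of 96 cells in the d20 library had 58 cycling cells (60.4%). The histone genes Hist1h2ap and Hist1h2ae and the replication factor gene Pclaf were among the leading genes of 2 of them. These genes were not on the lists and had not been left out of the clustering. The 4 clusters with both thymocyte genes Rag1 and Ccr9 among their leading genes held 643 to 1110 cells, of which 11.4% to 13% were cycling. Clusters led by Trdc, the constant part of the gamma-delta T cell receptor, had 1.54% to 3.45% in the d5 library (5 clusters) and 4 of 57, 0 of 54 and 2 of 16 cells in the other three. The clusters named T-like included 1 of 62 cells led by Pth, a parathyroid gene. In capillary-like cells of the d10 library, all 50 kept cells of a cluster of 93 were cycling, out of 78 cycling cells.

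Members were counted in UMI sums per class and library, given as CPM of the class. UMIs were read at the 3′ end of transcripts, so levels were not divided by gene length. Summed over the 42 members, T-like cells had 1266, 944, 2334 and 7476 CPM, and mural-like cells had 296, 959, 382 and 2329. Capillary-like cells had 337, 1254, 445 and 1315 CPM, follicular-like cells 257, 646, 244 and 884, and fibroblast-like cells 230, 382, 248 and 930. Macrophage-like cells had 507, 677, 502 and 708 CPM, and B-like cells 521, 682, 557 and 1114. A sum of a class does not tell more dividing cells from more transcripts per cell. All 42 members were highest in the d30 library in T-like cells. The same library was highest for 40 members in mural-like, 37 in fibroblast-like, 34 in B-like, 32 in follicular-like, 25 in capillary-like and 16 in macrophage-like cells.

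**Figure D2:**
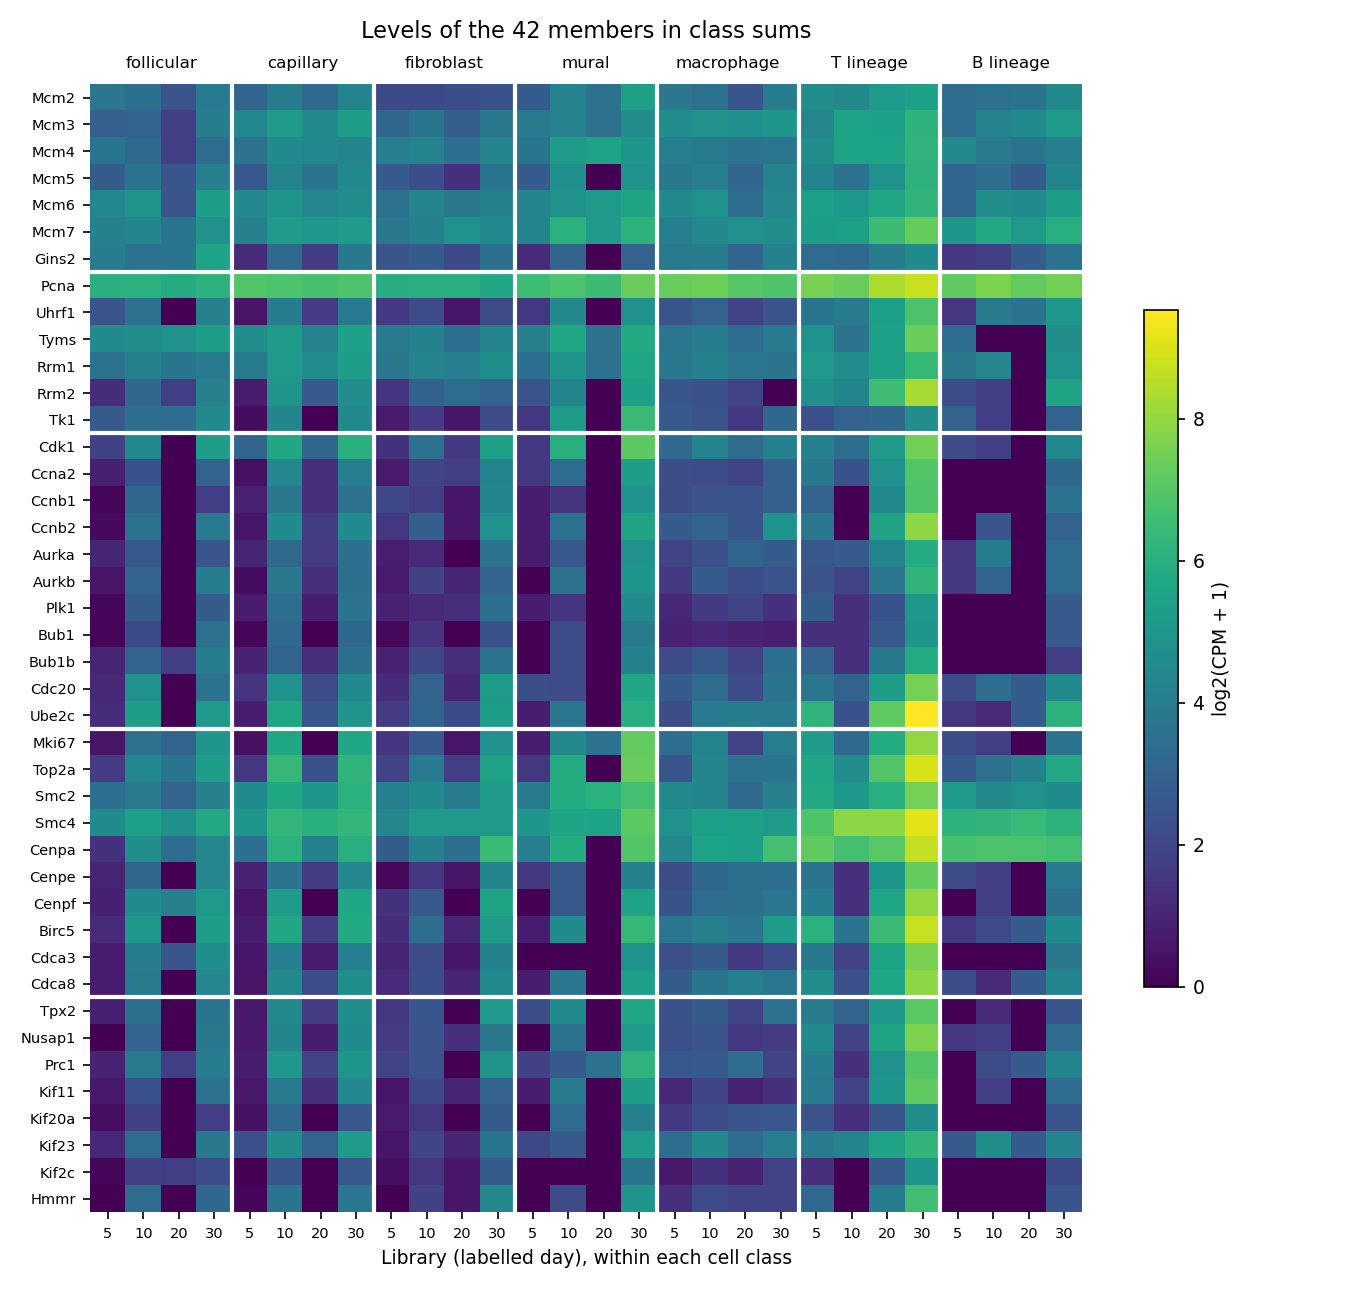
Levels of the 42 members (rows, ordered by role, white lines between roles) in the UMI sums of 7 classes in 4 libraries (columns), coloured by log2(CPM + 1). The brightest column is that of T-like cells in the d30 library, where Ube2c reached 742 CPM, and Pcna, Smc4 and Smc2 are visible in every column.

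Among the helicase genes Mcm7 had the highest mean level. In T-like cells it had 38.3, 41.4, 90.8 and 156 CPM, and in capillary-like cells 16.9, 36.8, 33.1 and 36.2. Mcm6 had 40.8, 32.8, 47.4 and 73.9 CPM in T-like cells and 20.7, 29.3, 4.78 and 38.2 in follicular-like cells. T-like cells lay above capillary-like cells for Mcm7 and above follicular-like cells for Mcm6 in each library. Gins2 behaved otherwise, with 15.2, 11.2, 11.9 and 45.3 CPM in follicular-like cells, above the 8.96, 8.56, 14.9 and 24.0 of T-like cells in the d5, d10 and d30 libraries. It was chosen after its values were seen.

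Pcna had the highest mean level of the members over the 28 sums of 7 classes in 4 libraries, with 193, 164, 330 and 423 CPM in T-like and 159, 171, 128 and 121 CPM in macrophage-like cells. Fibroblast-like cells had 60.5, 62.6, 61.3 and 50.5 CPM, and the level of this class moved little between libraries. Pcna is also used in DNA repair, and it was detected in all 28 sums. Tyms had 28.9, 11.4, 43.5 and 162 CPM in T-like and 25, 37.2, 17.6 and 42.7 in capillary-like cells, which were thus higher in the d10 library. Rrm2, the subunit of ribonucleotide reductase made in S phase, had 26.9, 20.0, 95.1 and 308 CPM in T-like cells. In capillary-like cells Rrm2 had 0.668, 30.7, 5.64 and 24.3 CPM, so that the d10 and d30 libraries stood above the other two, as for the cycling shares.

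Of the mitosis members Ube2c had 72.7, 4.28, 146 and 742 CPM in T-like cells, 0.668, 47.6, 4.94 and 30.3 in capillary-like cells and 1.34, 39.6, 0 and 33.4 in follicular-like cells. The 0 in follicular-like cells of the d20 library came from 418613 UMIs and allows up to 7.17 CPM. Top2a had 47.3, 24.3, 123 and 501 CPM in T-like, 1.84, 79.8, 4.23 and 75.2 in capillary-like and 1.92, 57.3, 0 and 160 in mural-like cells. The mural-like sum of the d20 library holds only 89019 UMIs of 22 cells. Here and below a 0 means that no UMI was counted, not that the gene was absent. In the d10 library both genes were thus lower in T-like than in capillary-like cells. Mki67, the usual stain of dividing cells, had 36.8, 8.56, 58.0 and 254 CPM in T-like, 0.334, 48.1, 0 and 48.6 in capillary-like and 0.641, 21.5, 11.2 and 149 in mural-like cells.

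Cdk1 had 2.59, 22.4, 0 and 38.2 CPM in follicular-like cells. In T-like cells it had 17.4, 9.99, 37.5 and 180 CPM, and in capillary-like cells 7.60, 52.2, 7.76 and 61.9. Its partner Ccnb1 was lower in both, with 6.97, 0, 22.1 and 119 CPM in T-like and 0.835, 12.8, 1.41 and 11 in capillary-like cells. The condensin genes were detected in all 28 sums. Smc4 had 119, 234, 240 and 559 CPM in T-like and 31.2, 77.9, 65.6 and 78.4 in capillary-like cells, and Smc2 had 53.3, 32.8, 63.9 and 186 in T-like and 24.0, 51.0, 31.0 and 66.5 in capillary-like cells. Cenpa, the histone of the centromere, had 146, 103, 135 and 402 CPM in T-like and 108, 116, 110 and 98.9 in B-like cells, where its level hardly moved between libraries. In follicular-like cells Cenpa had 1.63, 25, 9.56 and 20.3 CPM.

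Over the members, T-like cells had the highest level for 39 of 42 in the d5 library, for 5 in the d10 library, for 40 in the d20 library and for 40 in the d30 library. In the d10 library, capillary-like cells were highest for 24 and mural-like cells for 9. That library held 182 T-like cells, and none of its 4 T-like clusters was led by Rag1 or Ccr9. The d20 library held 3927 T-like cells and the d30 library held 1175, most of them in clusters led by thymocyte genes. T-like cells made up 96.7% of the cycling cells in the d20 library and 72.2% in the d30 library, against 27.8% and 7.58% in the d5 and d10 libraries.

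Each class was then compared with the mean of the other 6 over the 4 libraries (edgeR's quasi-likelihood test on UMI sums with the library as a block, Benjamini-Hochberg adjustment over 12751 genes). Kif2c, a kinesin that takes spindle fibres apart, had too few UMIs to be tested, so 41 members were. In T-like cells 40 of 41 rose, with a median log2 difference of 2.73 and a range of 1.15 to 4.33 over the tested members. Of all genes 35.0% were higher and 25.8% lower in T-like cells, with a median of 0.06. Ube2c differed most (log2 difference 4.33, standard error (SE) 0.52, adjusted p = 9.5e-08), followed by Nusap1 (3.95), Birc5 (3.90) and Kif11 (3.84), which act on the spindle and the chromosomes. Rrm2 was higher by 3.68 (SE 0.44) and Smc4 by 2.73 (SE 0.17, adjusted p = 3.9e-13). Of the replication members, Pcna was higher by 1.69 (SE 0.16) and Mcm7 by 1.68 (SE 0.19). Tk1 had a log2 difference of 1.15 (SE 0.53, adjusted p = 0.062) and did not pass. By role the median difference was 1.68 for the 7 helicase genes, 1.73 for the 6 fork and nucleotide genes, 2.79 for the 11 kinases, cyclins and checkpoint genes, 3.29 for the 10 chromosome genes and 3.24 for the 7 tested spindle genes. Leaving out any single library left 37 to 41 members called, all higher.

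In fibroblast-like cells 17 of 41 members were lower and 0 higher, with a median log2 difference of -1.11, where 24.6% of all genes were lower and 28.7% higher. Tk1 (-2.55, SE 0.70), Kif23 (-2.36, SE 0.48), Uhrf1 (-2.00, SE 0.55) and Mcm2 (-1.99, SE 0.29) differed most. Without the d10 or d20 library it was 10 members, and 10 with the T-like cells taken out of the other classes. In follicular-like cells 9 members were lower and 1 higher (27.6% and 28.1% of all genes), with a median of -0.92. Cenpa differed most (-2.63, SE 0.51), then Mcm3 (-1.61), Smc2 (-1.59) and Kif23 (-1.50). The member that was higher in follicular-like cells was Gins2 (1.31, SE 0.32, adjusted p = 0.0011). Without the d10 library, 14 were lower and 1 higher.

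The other classes had few members called. In capillary-like cells Mcm3 was higher (0.48, SE 0.17) and Gins2 lower (-0.93, SE 0.35), where 23.7% of all genes were higher and 21.1% lower. Without the d5, d20 or d30 library it was 1 member, and without the d10 library it was 3, all lower. In mural-like cells Tk1 was higher (1.67, SE 0.56) and Gins2 lower (-1.66, SE 0.56), against 21.2% and 14.8% of all genes, and without the d10 or d30 library it was 1 member, lower in both cases. Without the d5 library it was 3 higher and 0 lower, and without the upper limit of 10000 UMIs 0 higher and 3 lower. In macrophage-like cells Gins2 (1.25), Mcm3 (0.90) and Pcna (0.60) were higher and Smc4 lower (-0.54), against 26.1% and 18.3% of all genes. Without the d5 library it was 2 higher and 6 lower. In B-like cells Cenpa (1.85, SE 0.38), Pcna (0.79), Mcm7 (0.79) and Smc4 (0.56) were higher and Bub1b (-3.05), Tpx2 (-2.74) and Tyms (-1.35) lower, against 21.1% and 24.5% of all genes, and without the d30 library it was 3 higher and 1 lower. The T-like cells are part of the mean that these classes were set against. With them taken out, 6 members were higher and 0 lower in capillary-like cells, 5 and 1 in mural-like cells and 8 and 0 in macrophage-like cells. The share of all genes called without T-like cells was not counted, and nothing is read from these counts.

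Within the cells counted as cycling the balance of replication to mitosis members differed between libraries. In capillary-like cells the 13 replication members made up 73.6% of member UMIs in the d5 library (67 of 91, exact interval 63.3% to 82.3%) and 61.5% in the d20 library (40.6% to 79.8%). They made up 25.2% in the d10 library (22.4% to 28.2%) and 25.3% in the d30 library (20.6% to 30.5%). The capillary-like cells that passed the threshold in the d5 and d20 libraries thus held mostly replication members. They held at most 5 and 4 member UMIs, and 14 of the 29 in the d5 library had no UMI of a mitosis member. By the share alone, those of the d5 library could not be told from background. Whether these cells were dividing was not tested. In follicular-like cells the share was 68.2% (15 of 22 UMIs), 15.3% and 39.8% in the d5, d10 and d30 libraries. T-like cells had 28.1%, 38.3%, 34.7% and 21.2%, a narrower range. Macrophage-like cells had 53.1%, 32.6%, 24.1% and 41.7%, and fibroblast-like cells 40.5%, 28.8% and 9.73% in the d5, d10 and d30 libraries. UMIs of 1 cell are not independent, so these intervals are too narrow.

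**Figure D3:**
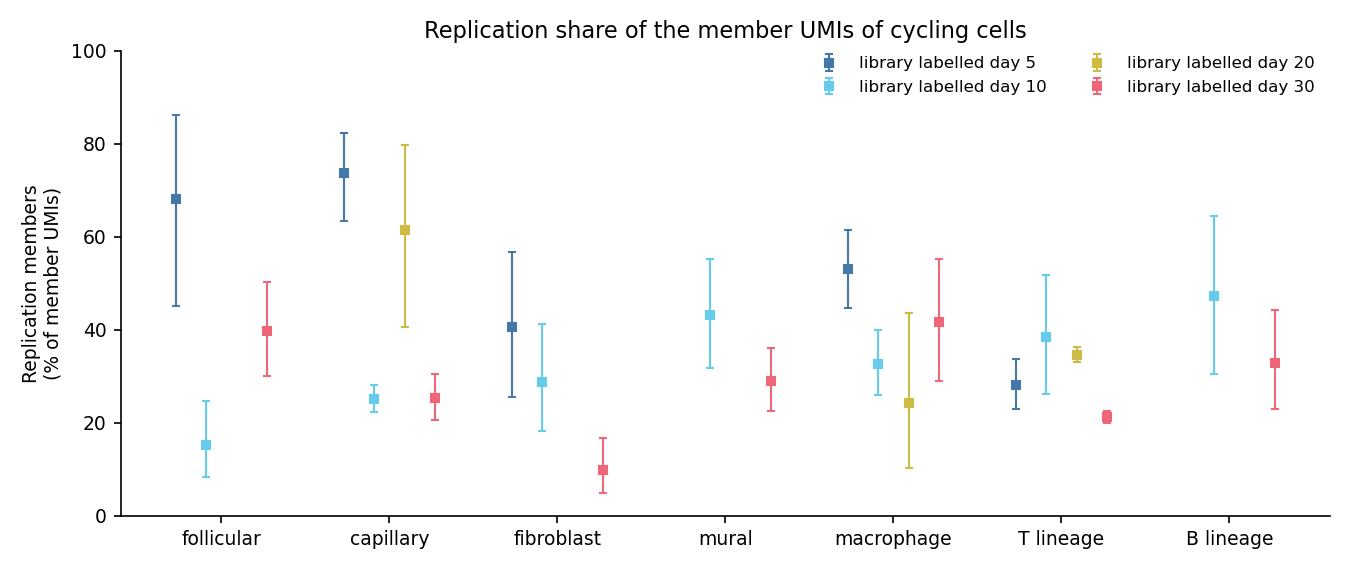
Share of the 13 replication members among the member UMIs of cycling cells (percent), by class and library (colour), with exact 95% binomial intervals as bars. Points of under 20 member UMIs are not drawn. Capillary-like cells of the d5 and d20 libraries lie at 73.6% and 61.5%, and those of the d10 and d30 libraries at 25.2% and 25.3%. The cells of the d5 and d20 libraries held at most 5 and 4 member UMIs.

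A further 46 genes around the members, from lists of the same pathway, were described class by class. G1 and S phase entry is set by D-type cyclins with Cdk4 and Cdk6, by Ccne1 and Ccne2 with Cdk2, and by the E2F factors. Of 19 such genes 13 were higher and 1 lower in T-like cells (35.0% and 25.8% of all genes), with a median log2 difference of 1.80. E2f2 (4.17, SE 0.46) and E2f8 (2.92, SE 0.60) were among the higher ones, as were the replication licensing genes Cdc45 (2.49) and Cdc6 (2.44). The lower one was Ccnd1, the gene of cyclin D1 (-3.76, SE 0.46). In capillary-like cells Ccnd1 was higher (2.87, SE 0.26), with 345, 305, 62.8 and 475 CPM, and 3 genes of the list were higher and 4 lower. Mycn was higher (2.16, SE 0.33) and its relative Myc lower (-3.71, SE 0.43) in these cells. Fibroblast-like cells had 3 higher and 7 lower, follicular-like cells 3 and 4, macrophage-like cells 3 and 5, B-like cells 4 and 2, and mural-like cells 2 and 1. Over all genes 21.1% to 28.7% were higher and 14.8% to 27.6% lower in these 6 classes, and nothing is read from the counts of the lists in them. Of the genes higher in follicular-like cells, Gmnn, which blocks a second round of replication, differed most (2.32, SE 0.23), and in fibroblast-like cells it was lower (-3.07, SE 0.35).

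Inhibitors of division were described in the same way. Of 12 inhibitors and pocket proteins, 8 were higher and 0 lower in T-like cells (35.0% and 25.8% of all genes), among them Cdkn2d (2.31, SE 0.20), Btg1 (1.99, SE 0.14) and Cdkn1b (1.93, SE 0.12). Fibroblast-like cells had 3 higher and 6 lower (28.7% and 24.6% of all genes). The higher ones were Cdkn2a, Cdkn2b and Cdkn1c, the gene of the imprinted inhibitor p57 (3.26, SE 0.25), and the lower ones included Btg1 (-1.94, SE 0.19). Follicular-like cells had 1 higher and 6 lower (28.1% and 27.6% of all genes), with Cdkn2d at -1.93 (SE 0.30), macrophage-like cells had 2 and 3 with Cdkn1a, the p53 target, at 1.57 (SE 0.32), and B-like cells had 4 and 4. Capillary-like cells had 2 and 4, and mural-like cells 1 and 2. Of 9 chromatin and tubulin genes abundant in dividing cells, 9 were higher in T-like cells, 0 in follicular-like, capillary-like, fibroblast-like and mural-like cells, 3 in macrophage-like and 2 in B-like cells. Of the same 9 genes 5 were lower in fibroblast-like, 3 in mural-like, 2 in follicular-like, 1 in capillary-like, 1 in macrophage-like and 0 in T-like and B-like cells. Over all genes 21.1% to 28.7% were higher and 14.8% to 27.6% lower in the classes other than T-like cells. Of the 6 genes of mitotic entry and transcription, 5 could be tested, and 4 were higher in T-like cells, 1 in B-like cells and 0 in the other classes. Thyroid function genes were a check of the classes, and 11 of 11 tested were higher in follicular-like cells.

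Cycling cells were then set against cells of the same class with 0 member UMIs after thinning, over sums per library and with the library as a block. The members chose the cells and were not tested. Other genes that are rare in the cells with 0 member UMIs passed the filter on low counts only through their level in cycling cells. Their rises are a description. The 2 sides were not matched in depth before thinning. In the d30 library medians were 6045 UMIs in cycling and 2325 in the other T-like cells, but 2822.5 and 3407.5 in follicular-like cells. The part of depth and of free RNA in the changes was not tested. Libraries entered with at least 5 cells on both sides, which gave 3 libraries for follicular-like, fibroblast-like and B-like cells and 4 for capillary-like, macrophage-like and T-like cells. Mural-like cells had only 2 such libraries and were not tested. The d5 library entered by the same threshold with 6 follicular-like, 29 capillary-like and 8 fibroblast-like cells. The shares of these classes there were not above that of neutrophil-like cells, and counts without this library are given for each of the 3. Other sets too could not be told from background by the share alone, as given above. They include fibroblast-like cells of the d10 and d30 libraries, so this holds for all 3 libraries of that class. Of its 8, 9 and 6 cycling cells, 1, 2 and 4 held 10 or more member UMIs, and no neutrophil-like cell did. Dut, which keeps uracil out of DNA, Gmnn, the DNA damage histone gene H2afx, the chromatin gene Hmgb2 and the microtubule regulator Stmn1 rose in all 6 classes tested. In B-like cells 0 genes were called with DESeq2 (80 at an unadjusted p under 0.05) and 0 in edgeR without the library as a block (147). The number of calls there fell with each library left out, as given below. Stmn1 had 0, 359 and 1986 CPM in cycling B-like cells of the d5, d10 and d30 libraries, against 80.2, 155 and 86.0 CPM in the others, and Dut and Gmnn too were higher in 2 of the 3 libraries. A further 44 genes rose in 5 of the 6. Histone and tubulin genes have near-identical copies, and reads of these copies cannot be told apart with certainty.

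**Figure D4:**
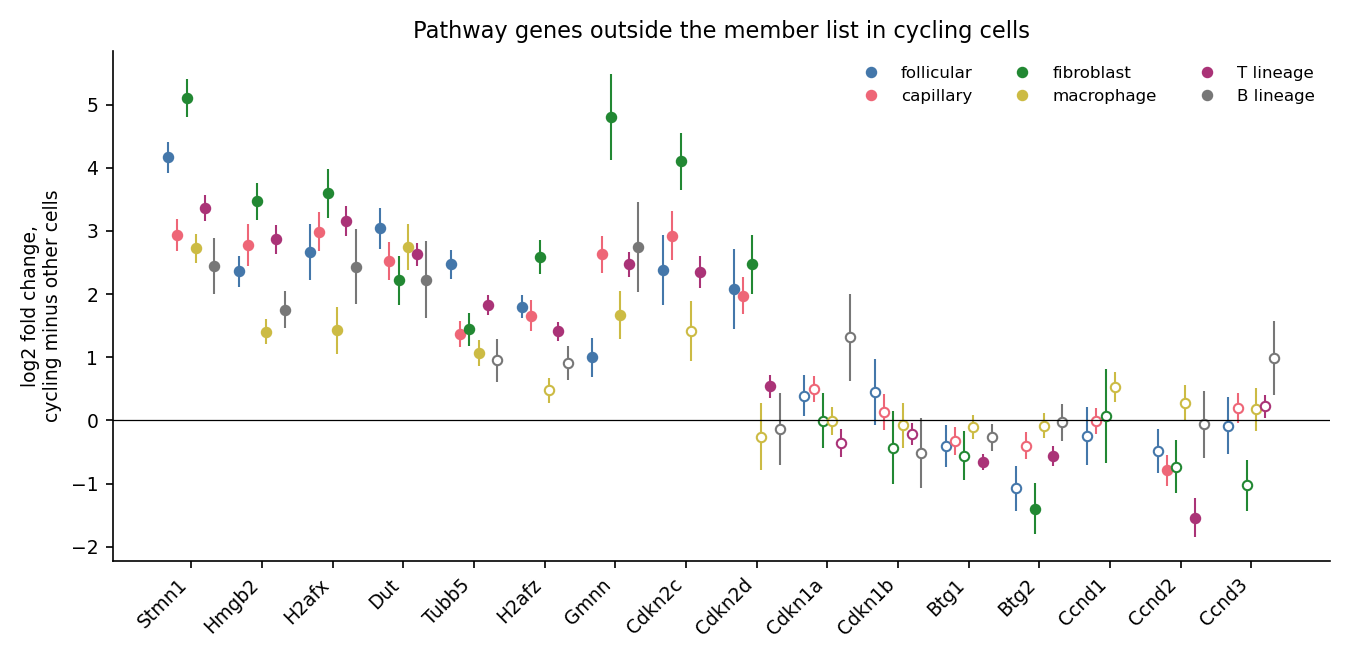
Log2 fold change between cycling cells and cells with 0 member UMIs for 16 genes around the members, in the 6 classes tested (colour), with 1 SE as a bar. Filled points passed an adjusted p of 0.05 and open points did not. Stmn1, Hmgb2, H2afx and Dut are filled in 6 classes, whereas Cdkn1a and Cdkn1b are filled in none.

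In cycling follicular-like cells 136 of 5857 genes rose (2.32%) and 59 fell (1.01%). The 6, 9 and 14 cycling cells of the 3 libraries are few. In the d5 library 4 of the 6 came from a cluster of 137 cells led by Car3, Tg, Fabp4 and Scd1, of which Tg alone is a follicular marker and Fabp4 is known from fat and vessels. Summed mural markers there were at 344 CPM in cycling and 39.1 in the other cells, and summed fibroblast markers at 448 against 22 CPM. The part of other cells in the values of this class was not tested. Stmn1 rose by 4.17 on the log2 scale (SE 0.24, adjusted p = 3.5e-30). The E2F gene E2f1 had a mean of 0.7 CPM in cells without member UMIs and 113 in cycling cells (log2 difference 7.20, SE 0.95). These means rest on 8 and 14 UMIs, and E2f1 passed the filter on low counts only through the cycling cells. All 9 chromatin and tubulin genes rose. Of 10 tested thyroid function genes 3 fell and 0 rose, with a median of -1.0. Tg, the hormone precursor thyroglobulin, had 31092, 20959 and 23599 CPM in cycling cells of the d5, d10 and d30 libraries and 49495, 38120 and 31328 CPM in the other cells, and fell by 0.84 (SE 0.13, adjusted p = 6.9e-07, lower in 3 of 3 libraries). Tg also fell by 0.65 (SE 0.19) in cycling capillary-like and by 0.98 (SE 0.23) in cycling macrophage-like cells, which are not known to make it. Iyd, which recycles iodide, fell by 0.96 (SE 0.24). The factors Pax8 (-1.04, SE 0.34, adjusted p = 0.070) and Nkx2-1 (-0.91, SE 0.30, adjusted p = 0.079) did not pass. Of the marker lists of other classes, 1 gene passed, the fibroblast collagen Col3a1 (1.94, SE 0.60), with 413, 32.6 and 67.5 CPM in cycling and 8.47, 54.1 and 39.7 CPM in the other cells. The 136 rises became 75, 59 and 75 and the 59 falls 6, 1 and 21 without the d5, d10 and d30 library in turn. With DESeq2 105 genes rose and 8 fell, and without the library as a block 107 rose and 7 fell.

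In cycling capillary-like cells 362 of 8318 genes rose (4.35%) and 139 fell (1.67%). Of the G1 and S phase genes 12 of 18 rose, among them Ccne2 (4.01, SE 0.77), Cdc45 (4.57, SE 1.01) and E2f1 (3.57, SE 0.66), and 1 fell, Ccnd2 (-0.79, SE 0.24). All 9 chromatin and tubulin genes and 5 of 6 mitotic entry genes rose. Of genes with at least 50 CPM, the largest falls were in Mgp, an inhibitor of calcification (-2.70, SE 0.29), the arterial gap junction gene Gja4 (-1.95, SE 0.33) and the tight junction gene Cldn5 (-1.88, SE 0.30). The capillary markers Kdr (-0.56, SE 0.16) and Flt1 (-0.55, SE 0.16), both receptors of vascular endothelial growth factor, fell. The 2 sides held capillary-like clusters in unequal shares. In the d10 library 50 and 25 of the 78 cycling cells came from clusters of 50 and 494 kept cells, and in the d30 library 29 of 30 came from 1 of 277 cells. The clusters of 325 cells in the d10 library and 112 cells in the d30 library, both with Esm1 among their leading genes, held 1 cycling cell each. The part of these clusters in the falls was not tested. Of the B cell markers Ighm rose (5.18, SE 0.76), with 42.97, 174.1, 0 and 5.157 CPM in cycling cells. In the d5 library summed T cell markers were at 473 CPM in cycling and 26.3 in the other cells, and summed mural markers at 376 against 169 CPM. A cluster of 11 cells led by Ccl5 and Gzma held 2 of its cycling cells, and the part of other cells was not tested. Left out one at a time, the d5, d10, d20 and d30 libraries changed the 501 genes to 763, 46, 536 and 75. With DESeq2 190 genes rose and 17 fell, and without the block 69 and 3.

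In cycling fibroblast-like cells 169 of 7190 genes rose (2.35%) and 110 fell (1.53%), from 8, 9 and 6 cycling cells. Stmn1 rose by 5.11 (SE 0.30) and Hmgb2 by 3.47 (SE 0.29). Eln, the elastin gene (-3.44, SE 0.37), and H19 (-3.10, SE 0.41) fell. Of the 7 fibroblast markers 1 fell, Dcn (-0.94, SE 0.27), and 0 rose. In the d10 library 5 of the 9 cycling cells were all that was kept of a cluster of 23, and 0 came from a cluster of 123 kept cells, and in the d5 library clusters of 231 and 1150 cells gave 4 each. The part of these clusters in the falls was not tested. Cdkn1c fell by 1.25 (SE 0.36) and Btg2, an antiproliferative gene, by 1.40 (SE 0.40). Markers of other classes rose, the mural Rgs5 (3.37, SE 0.55) and the capillary Flt1 (2.55, SE 0.58) and Egfl7 (2.05, SE 0.56). Summed mural markers were at 622, 745 and 2358 CPM in cycling and 399, 613 and 842 in the other cells, and summed capillary markers at 1682, 141 and 76.9 against 390, 113 and 112 CPM. The part of other cells in this result was not tested. The 279 genes became 228 without the d5 library and 33, of which 1 fell, without the d10 library. With DESeq2 176 rose and 24 fell, and without the block 88 and 8.

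In cycling T-like cells 710 of 8486 genes rose (8.37%) and 736 fell (8.67%). Stmn1 rose by 3.36 (SE 0.20), all 6 mitotic entry genes rose, with Foxm1, the activator of mitosis genes, at 4.92 (SE 0.44), and 12 of 18 G1 and S phase genes rose. Of the G1 genes Ccnd2 (-1.54, SE 0.31) and Cdk6 (-0.71, SE 0.23) fell. The antiproliferative genes Btg1 (-0.66, SE 0.13) and Btg2 (-0.57, SE 0.16) fell too. Il7r, the interleukin 7 receptor of resting and early T cells, fell by 2.26 (SE 0.23), with 240, 334, 23.9 and 12.1 CPM in cycling and 816, 646, 132 and 113 CPM in the other cells, and the chemokine gene Ccl5 fell by 2.62 (SE 0.58). The natural killer marker Klrd1 fell by 2.25 (SE 0.45). Cycling and other T-like cells came from the T-like clusters in unequal shares. The clusters in which all kept cells were cycling gave 77 and 155 of the 353 cycling cells of the d30 library. The 5 clusters led by Trdc in the d5 library held 1 or 2 cycling cells each. Of the 44 cycling cells of that library, 17 came from a cluster of 86 cells led by Ccl5 and Gzma. The part of these clusters in the falls was not tested. Of the T cell markers Cd8a rose by 0.53 (SE 0.16), and Cd3d fell by 0.43 (SE 0.12). The 1446 genes became 532 without the d20 library and 615 without the d30 library. With DESeq2 483 rose and 277 fell. In edgeR without the block 141 rose and 0 fell (686 genes in either direction at an unadjusted p under 0.05), so that none of the falls above passed there.

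In cycling macrophage-like cells 107 of 6825 genes rose (1.57%) and 36 fell (0.527%). The histone gene Hist1h2ap (5.79, SE 0.47), Cks1b, a partner of the cyclin-dependent kinases (3.69, SE 0.33), and Dut (2.75, SE 0.36) rose. Retnla, a gene of alternatively activated macrophages, was not counted in the cycling cells, which allows up to 6.19 CPM over the 4 libraries (3 counts), and had 735, 159, 171 and 164 CPM in the others. The monocyte gene Lyz2 fell by 0.97 (SE 0.20). Here too the clusters gave cycling cells in unequal shares, with 21 of 320 and 7 of 337 cells in the 2 clusters of the d10 library, and 26 of 505 and 6 of 354 in the larger 2 of the d5 library, the last led by Lyz2. The part of these clusters was not tested. Of the 8 macrophage markers, which include the complement genes C1qa, C1qb and C1qc, 0 passed. The 143 genes became 58 without the d5 library and 17 without the d10 library. With DESeq2 84 rose and 8 fell. In edgeR without the block 18 rose and 0 fell (316 genes at an unadjusted p under 0.05), so that neither Retnla nor Lyz2 was called there. In cycling B-like cells 6 of 2963 genes rose (0.202%) and 16 fell (0.540%), from 6, 11 and 12 cycling cells. Besides the 5 genes shared by all classes, Calca rose (1.88, SE 0.47), a C cell gene, with 0, 1795 and 142.8 CPM in cycling and 149.4, 136.5 and 57.36 CPM in the other cells. Igkc, an antibody light chain (-0.96, SE 0.12), Ms4a1, which encodes CD20 (-1.32, SE 0.30), and Myc (-3.98, SE 1.08) fell. The 22 genes became 5, 14 and 7 without the d5, d10 and d30 library in turn.

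Inhibitors of cyclin-dependent kinases were not uniformly lower in cycling cells. Cdkn2c, the gene of p18, rose in follicular-like (2.38, SE 0.56), capillary-like (2.92, SE 0.39), fibroblast-like (4.10, SE 0.45) and T-like cells (2.35, SE 0.26), and its relative Cdkn2d rose in the same 4 classes, by 0.54 (SE 0.18) in T-like cells and by 1.97 to 2.47 in the others. Rbl1, a pocket protein known as p107, rose in capillary-like, fibroblast-like, macrophage-like and T-like cells. Cdkn1a and Cdkn1b, the genes of p21 and p27, did not pass in any class in which they were tested.

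Cells left out by the filters held many cycling cells. The filter removed cells with over 10000 UMIs and the 6% with the highest doublet score, and both sets had been part of the clustering, which gave them classes. Of T-like cells over the limit 391 of 442 (88.5%) were cycling in the d20 library and 100 of 109 (91.7%) in the d30 library, after thinning to the same 1000 UMIs. Of macrophage-like cells over the limit 30.1% and 27.2% were cycling in the d10 and d30 libraries, against 4.26% and 9.09% of those kept. In follicular-like cells of the d30 library it was 7.94% of 428 cells over the limit and 8.24% of those kept, with intervals that overlapped. The limit left out more follicular-like cells than were kept in the d10, d20 and d30 libraries. There were 344, 267 and 428 over it, against 262, 60 and 243 kept. Of the 267 in the d20 library 0.749% were cycling (0.0908% to 2.68%). The shares given above thus hold for cells of up to 10000 UMIs.

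**Figure D5:**
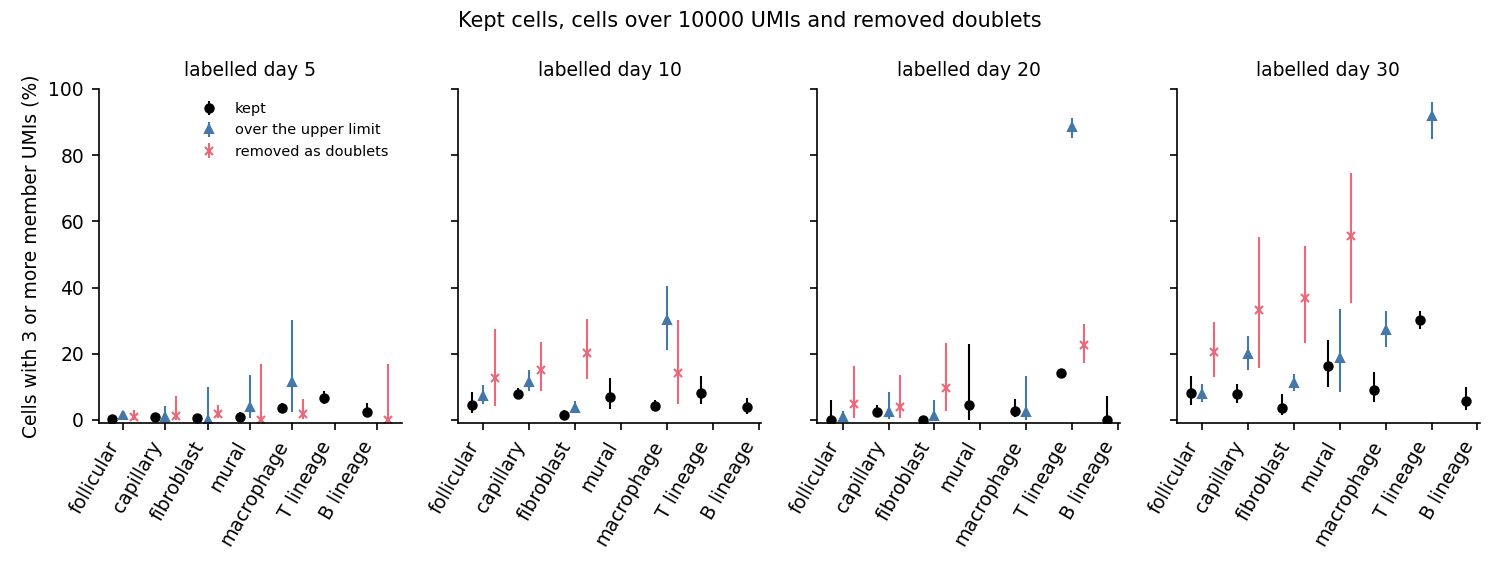
Share of cells with 3 or more member UMIs (percent) after thinning, in 1 panel per library, for kept cells (circles), cells over 10000 UMIs (triangles) and cells removed as doublets (crosses), with exact 95% binomial intervals as bars. Sets of under 20 cells are not drawn. T-like cells over the limit stand at 88.5% and 91.7% in the d20 and d30 libraries.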

How the data were processed

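The authors used CellRanger on the mouse build mm10 (its version is given differently by labels and methods) and deposited unnormalized UMI counts of every gene in every barcode, for each of the 4 libraries, with no cell filter. The submitters' processing notes also name Seurat 3.1.4 and 3.6.3. A further deposited table served only as a list of cell barcodes (0 of its columns gave values). Library kits of versions 2 and 3 are named without saying which library had which.

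Cells with 200 to 10000 UMIs, at most 10% mitochondrial and 5% hemoglobin UMIs were kept. The 6% of cells with the highest Scrublet score were removed per library, because its automatic threshold marked 8.84% of cells in the d5 library but 0.0166%, 0% and 0% in the others. Each library was clustered in scanpy 1.11.5, with the cells over 10000 UMIs and the doublets still included. This used 2000 variable genes without the listed cell cycle genes, 30 principal components, 15 neighbours and a resolution of 0.9. Clusters without a name of at least 50 cells were clustered again. A cluster needed 3 markers raised by 1 on the log2 scale. The exact naming rule was settled after the clusters were seen. Because the classes were rebuilt here, a share of cells may differ from that in the cell types of the study. By its stated cell numbers the library of day 30 would be the largest, whereas the d5 library kept the most cells here.

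UMI sums per class and library (at least 20 cells) were tested in edgeR 4.0.16 (TMM, filterByExpr, quasi-likelihood test, library as block) with Benjamini-Hochberg adjustment and a threshold of 0.05. The same cells gave the classes, so p-values measure no more than the spread between the 3 or 4 libraries of a comparison. edgeR estimates this spread with information pooled over genes. In the tests between classes all 7 classes also shared 1 estimate of the spread per gene, with 18 residual degrees of freedom. The SE and p of a class thus rest on the spread of the other 6 too. Summed members ranged from 944 to 7476 CPM in T-like cells but from 502 to 708 in macrophage-like cells. Comparisons of cycling cells left 2 or 3 residual degrees of freedom, so their small p-values rest largely on the pooled estimate. The block pairs the classes of 1 library. The members and lists were chosen with earlier results of these data known. Named by rule were the 5 members of highest mean CPM in replication and in mitosis, with Mki67, Top2a, Cdk1 and Ccnb1, the pathway and marker lists, and the 5 largest rises and falls at 50 CPM or more per class. Members named for their differences between classes, like the leading genes of clusters, were picked with their values in view. The edgeR fits were also run on simulated sums with planted changes. These had the same dispersion for every gene and neither class nor library differences, so they check the code and not the error rates here. Alternatives used DESeq2 1.42.0, Seurat 5.3.0 with sctransform 0.4.2 on 3000 features, other filters, thinning to 2000 UMIs and other thresholds. Python 3.11.15, numpy 2.4.6, scipy 1.17.1, pandas 2.3.3, matplotlib 3.10.9, R 4.3.3 and limma 3.58.1 were used. Floors are 3 counts. The values of 1 gene of the thyroid function list are not reported here.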

Additional observations from a re-analysis of the deposited data

Results flagged for a closer look

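The comparisons used neither the cells over 10000 UMIs nor those removed as doublets. Both were thinned to 1000 UMIs like the others, and 13 of these sets of at least 20 cells had a share of cycling cells with an interval above that of the kept cells of the same class and library. Among cells over the limit it was 88.5% and 91.7% of T-like cells in the d20 and d30 libraries, where 14.2% and 30.2% of kept cells were cycling. Macrophage-like cells over the limit had 30.1% and 27.2% in the d10 and d30 libraries. In the d30 library, capillary-like cells over the limit had 19.8% and fibroblast-like cells 11.1%. Follicular-like cells over the limit had 1.42% in the d5 library, against 0.343% of those kept.

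Among cells removed as doublets the shares were 22.7% of T-like cells in the d20 library, and 20.2%, 9.76% and 37.0% of fibroblast-like cells in the d10, d20 and d30 libraries. In the d30 library they were 33.3% of 24 capillary-like and 55.6% of 27 mural-like cells. The part of doublets in these shares was not tested.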

How the results depend on the processing

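Values that moved are given by setting. Mean cycling shares of follicular-like, capillary-like, fibroblast-like, macrophage-like, T-like and B-like cells at 2 or more member UMIs were 7.18%, 10.1%, 3.68%, 12.0%, 28.4% and 11.7%. At 5 or more, follicular-like, capillary-like, mural-like, macrophage-like, T-like and B-like cells had 1.95%, 2.92%, 4.56%, 1.32%, 8.0% and 0.721%. With only the 29 mitosis members counted the same 6 classes had 1.92%, 2.68%, 3.94%, 1.75%, 8.63% and 0.959%. Without the upper limit of UMIs capillary-like, fibroblast-like, macrophage-like and T-like cells had 6.09%, 3.16%, 8.58% and 18.2%. Thinned to 2000 UMIs with 6 or more member UMIs, capillary-like, macrophage-like, T-like and B-like cells had 3.81%, 2.33%, 11.9% and 1.22%. With at most 5% mitochondrial UMIs, T-like and B-like cells had 17.6% and 5.68%. Each mean covers the libraries with at least 20 cells of the class, so the libraries can differ between settings. Without clusters split off a second time, chosen after seeing the data, T-like cells had 17.2% and capillary-like cells 1 member called. This T-like mean lacks the d5 library, where every T-like cluster had been split off a second time. The mean share of T-like cells over the libraries was the largest of the 7 under each of these settings. In the d10 library taken alone this was not so at 5 or more member UMIs.

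Without the replicate block (the library), 0 members were called in capillary-like, 10 in fibroblast-like, 1 in mural-like and 2 in B-like cells, and 114, 72, 96, 18, 141 and 0 genes in cycling follicular-like, capillary-like, fibroblast-like, macrophage-like, T-like and B-like cells. The block pairs the classes of 1 library, which come from the same mice, and the other counts moved by under 1.5 times without it. DESeq2 called 1 member in capillary-like and 1 in mural-like cells, and 113, 207, 92, 760 and 0 genes in cycling follicular-like, capillary-like, macrophage-like, T-like and B-like cells. Sums of thinned counts gave 13, 74, 41, 13, 304 and 12 genes in the 6 classes, and no upper limit gave 961, 1298, 2011, 1136 and 2676 in the first 5. Without the filter on low counts 7 members were called in macrophage-like cells and 117 genes in cycling B-like cells. With T-like cells left out of the other classes, also chosen after seeing the data, 6, 10, 6 and 8 members were called in capillary-like, fibroblast-like, mural-like and macrophage-like cells. The counts of genes in cycling cells thus depend on the setting in all 6 classes, whereas the 40 members of T-like cells moved by under 1.5 times in each. The cause of these differences was not tested.

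Leaving out 1 library at a time gave mean shares of 1.64% to 4.38% in follicular-like, 3.60% to 5.97% in capillary-like, 0.689% to 1.93% in fibroblast-like, 4.13% to 9.25% in mural-like, 3.61% to 5.70% in macrophage-like, 9.67% to 17.6% in T-like and 2.06% to 3.98% in B-like cells. Members called were 9 to 15, 1 to 3, 10 to 14, 1 to 3, 3 to 8, 37 to 41 and 4 to 6 in the same order. Genes called in cycling cells were 60 to 96 in follicular-like, 46 to 763 in capillary-like, 33 to 228 in fibroblast-like, 17 to 197 in macrophage-like, 532 to 1595 in T-like and 5 to 14 in B-like cells. Depth limits the classes of few cells, such as the 22 mural-like cells of the d20 library.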

Other observations

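Over all named and unnamed cells, 1.53% of kept cells were cycling in the d5 library (158 of 10358), 5.27% in the d10 library (198 of 3756), 11.3% in the d20 library (550 of 4883) and 17.7% in the d30 library (489 of 2770). T-like cells made up 6.52%, 4.82%, 76.7% and 42.2% of these kept cells.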
